A study of Mus musculus with 7 samples.

Results

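Wdyhv1, also named Ntaq1, and 5 other genes of the Arg/N-degron pathway, Ntan1, Ate1, Ubr1, Ubr2 and Ubr4, were followed on 7 microarrays of HM-1 mouse ovarian cancer cells. These are 6 of the 30137 genes that have a transcript cluster, the feature by which the array reports a transcript, with exactly 1 gene symbol. Each of the 6 has 1 such cluster. Wdyhv1 was picked for its large fall in HM-1-shSnail cells, and the other 5 were picked by their place in the same pathway. The comparison of Wdyhv1 between HM-1-shSnail and HM-1-control cells is therefore a description without a test.

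HM-1-shSnail cells were stably transduced with lentivirus that carries 1 of 2 short hairpin RNAs against Snail, called sh1 and sh2, and HM-1-control cells with a non-silencing hairpin. There were 2 arrays of sh1, 2 arrays of sh2 and 3 arrays of HM-1-control. All were RNA of cultured cells of 1 line, with no host tissue. Nothing in the sources says that any hairpin's cells were made more than once, so p-values measure only the spread between samples, and an effect of the knockdown cannot be told apart from other lasting differences between the cell lines. The stretches of Snai1, the gene of Snail, that the hairpins were designed against are shown because they define the groups.
sh1 target: agtttattgatattcaata
sh2 target: tggttaatttatatactaa
These 19-base targets differ from each other, so sh1 and sh2 are separate reagents against the same gene.

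The Arg/N-degron pathway destroys proteins according to their first amino acid. Some first residues are read directly, and others must be prepared. The amidase NTAQ1, the product of Wdyhv1, turns an N-terminal glutamine into glutamate, and NTAN1 turns an N-terminal asparagine into aspartate. The arginyltransferase ATE1 then adds arginine to the acidic residue, and the ubiquitin ligases UBR1, UBR2 and UBR4 recognise the arginine through their UBR box and mark the protein for degradation. In mammals the pathway is known for acting on regulators of G protein signalling, on fragments left by caspases and calpains, and on proteins of cell division.

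The deposited log2 signals of an array had a median of 4.51 to 4.56 over the clusters. The array's negative controls, probes without a mouse target, had medians of 4.92 and 4.99 with sh1, 5.12 and 5.20 with sh2, and 4.83, 4.85 and 4.86 in HM-1-control. The 95th percentile of their means over 7 arrays was 7.97, and a level under it is called near background here. Equal values on 2 or more of the 7 arrays occurred in 79.9% of clusters, as deposited. Snai1 was at 6.70 ± 0.11 (SD, n = 4) in HM-1-shSnail and 6.66 ± 0.05 (SD, n = 3) in HM-1-control, near background, so its signal does not check the labels. Of 7 epithelial markers, Krt8, Krt18 and Krt19 were above background in both groups, while Krt7, Epcam, Cdh1 and Cldn7 were not. Of 7 measured leukocyte markers only Ly6g was above background in a group, at 8.44 in HM-1-shSnail and 7.92 in HM-1-control, and Ptprc was at 4.22 in both. None of 5 endothelial and 6 fibroblast markers was above it. None of these markers passed the test of HM-1-shSnail against HM-1-control.

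Wdyhv1 was much lower with both hairpins. Its log2 signal was 9.09 and 9.25 with sh1, 8.79 and 9.13 with sh2, and 11.53, 11.55 and 11.55 in HM-1-control. The groups were far apart, since the highest HM-1-shSnail array lay more than 2 log2 units under the lowest HM-1-control array. The mean was 9.06 ± 0.19 (SD, n = 4) in HM-1-shSnail and 11.54 ± 0.01 (SD, n = 3) in HM-1-control, a log2 fold change of -2.48 (standard error 0.11) or 5.56-fold lower. A call with a fall of more than 2-fold, the kind of change for which Wdyhv1 was taken, was made in 0.147% of the 65770 clusters. The HM-1-shSnail mean still lay above 97.6% of the negative controls, so what was left was above background. Fewer transcripts per cell and fewer cells that express the gene cannot be told apart in bulk RNA.

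**Figure D1:**
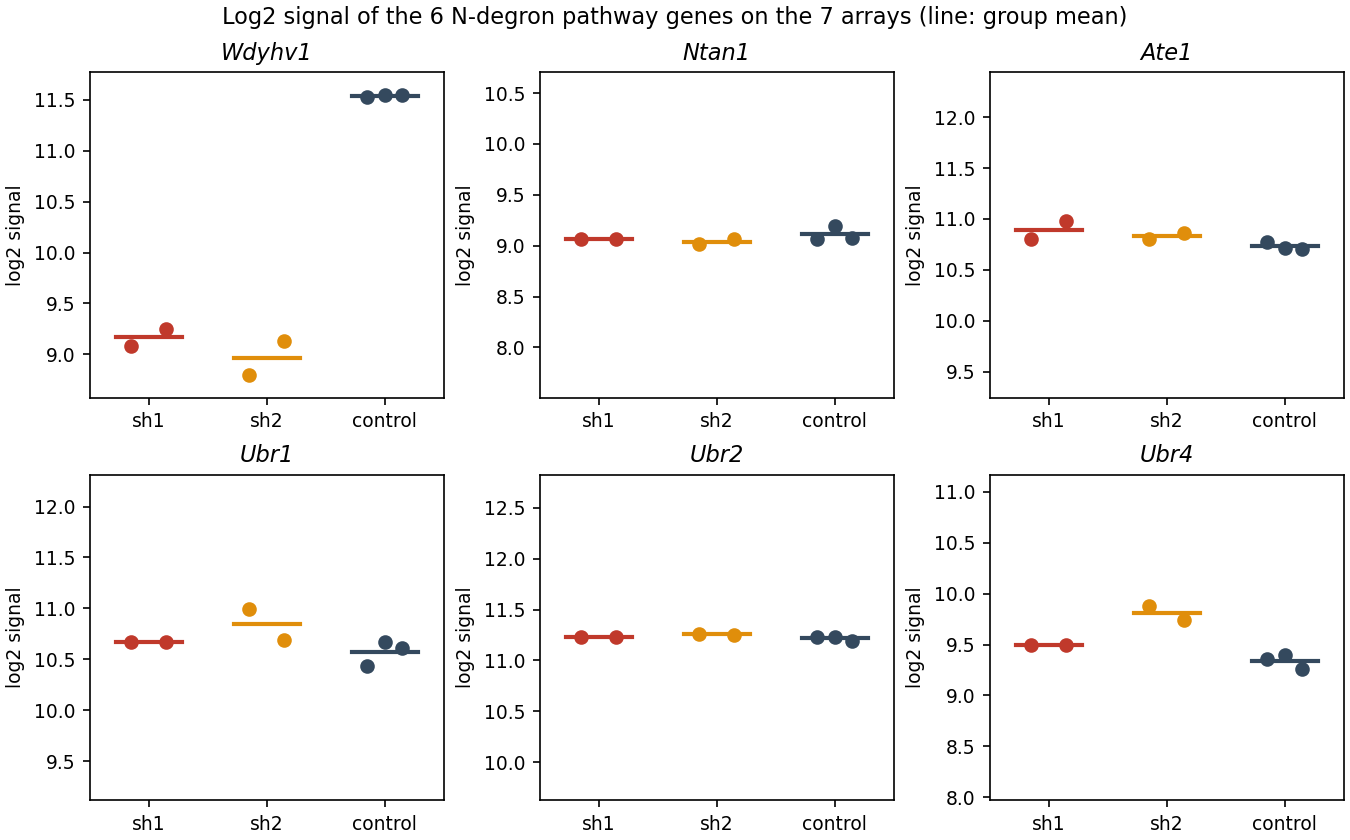
Log2 signal of the 6 genes on each array, with sh1 and sh2 left of control; points are arrays, bars are group means, and every panel spans the same number of log2 units. Wdyhv1 sits at 8.79 to 9.25 on the HM-1-shSnail arrays and at 11.53 to 11.55 on the HM-1-control arrays, while the points of the other 5 genes lie close together.

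The difference of Wdyhv1 between the hairpins was small beside that from HM-1-control. The mean was 8.96 ± 0.24 with sh2 and 9.17 ± 0.12 with sh1 (SD, n = 2 each). The log2 difference of sh2 from sh1 was -0.21, with a 95% confidence interval of -0.53 to 0.11 (limma, adjusted p = 0.80). From highest to lowest the order was HM-1-control, sh1 and sh2, and the neighbours sh1 and sh2 did not differ beyond their spread. Set against the same 3 HM-1-control arrays, the log2 fold change was -2.58 with sh2 and -2.37 with sh1. Between sh2 and sh1, limma called 0 of all clusters (0%), and 1487 clusters were lower and 2463 higher when p was left unadjusted at a threshold of 0.05.

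The other amidase gene, Ntan1, stayed near its HM-1-control level. Its log2 signal was 9.06 and 9.06 with sh1, 9.02 and 9.06 with sh2, and 9.06, 9.19 and 9.08 in HM-1-control. The groups overlapped, and 4 of the 7 deposited values were equal. The log2 fold change was -0.06, with a 95% confidence interval of -0.15 to 0.03 (limma, adjusted p = 0.62). With these equal values, a narrow interval need not reflect precision.

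Ate1, the arginyltransferase gene common to both amidase branches, was slightly higher without passing the test. Its log2 signal was 10.80 and 10.98 with sh1, 10.80 and 10.86 with sh2, and 10.78, 10.72 and 10.70 in HM-1-control. The groups did not overlap, but the lowest HM-1-shSnail array and the highest HM-1-control array differed only in the second decimal. Groups with HM-1-shSnail higher and no overlap were found in 5.08% of all clusters. The log2 fold change was 0.13, with a 95% confidence interval of 0.01 to 0.25 (limma, adjusted p = 0.49).

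Of the 3 ligase genes, Ubr4 had the largest difference. Ubr4 encodes a very large UBR box protein that works with the E3 ligase partner KCMF1. Its log2 signal was 9.50 and 9.50 with sh1, 9.88 and 9.75 with sh2, and 9.35, 9.40 and 9.26 in HM-1-control. All HM-1-shSnail arrays were above all HM-1-control arrays, as in 5.08% of all clusters, and both sh2 arrays were above both sh1 arrays. The log2 fold change of HM-1-shSnail was 0.32, with a 95% confidence interval of 0.05 to 0.59 (limma, adjusted p = 0.44). In the fit of 3 groups it was 0.48 with sh2 (limma, adjusted p = 0.0496), and 1.29% of all clusters passed the same test. With sh1 it was 0.16 in that fit (limma, adjusted p = 0.64). When only the sh2 and HM-1-control arrays were fitted, Ubr4 did not pass (limma, adjusted p = 0.17). The difference of sh2 from sh1 was 0.31, with a 95% confidence interval of 0.14 to 0.48, and did not pass (adjusted p = 0.41). The sh2 call did not survive leaving out any single array (adjusted p = 0.059 to 0.17), nor quantile normalization (adjusted p = 0.068). The negative controls stood in the same order, with a median log2 difference from HM-1-control of 0.27 with sh2 and 0.10 with sh1. Each array's negative control median was also tried as a covariate. The log2 fold change of Ubr4 was then 0.07 for HM-1-shSnail (adjusted p = 0.94) and 0.80 with sh2 (adjusted p = 0.57). This fit cannot decide whether the sh2 call rests on background. The medians did not overlap between sh1, sh2 and HM-1-control, and 0 of all clusters passed with sh2 in it.

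Ubr1 and Ubr2 encode close relatives that bind the same N-terminal residues. The log2 signal of Ubr1 was 10.67 and 10.67 with sh1, 11.00 and 10.69 with sh2, and 10.43, 10.67 and 10.61 in HM-1-control. Here 1 sh2 array was high and the rest overlapped (log2 fold change 0.18, 95% confidence interval -0.08 to 0.44, limma adjusted p = 0.61). The log2 signal of Ubr2 was 11.24 and 11.24 with sh1, 11.26 and 11.25 with sh2, and 11.24, 11.24 and 11.19 in HM-1-control. Ubr2 had the tightest interval of the 6 genes, with a log2 fold change of 0.02 and a 95% confidence interval of -0.01 to 0.06 (limma, adjusted p = 0.62). As 4 of its 7 deposited values were equal, the narrow interval need not reflect precision. For Ubr1, 3 of the 7 were equal.

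Of the 5 genes other than Wdyhv1, 0 passed the test of HM-1-shSnail against HM-1-control, in which 0.642% of all clusters passed. With p left unadjusted at a threshold of 0.05, limma had 2 of the 5, Ate1 and Ubr4, beside 10.1% of all clusters. A one-way analysis of variance over sh1, sh2 and HM-1-control also called 0 of the 5, beside 0.0228% of all clusters. The lowest confidence bound among the 5 was the -0.15 of Ntan1. Over the 7 arrays, which share the split into hairpin and control, the Pearson correlation with Wdyhv1 was 0.62 for Ntan1, -0.68 for Ate1, -0.65 for Ubr1, -0.66 for Ubr2 and -0.82 for Ubr4.

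**Figure D2:**
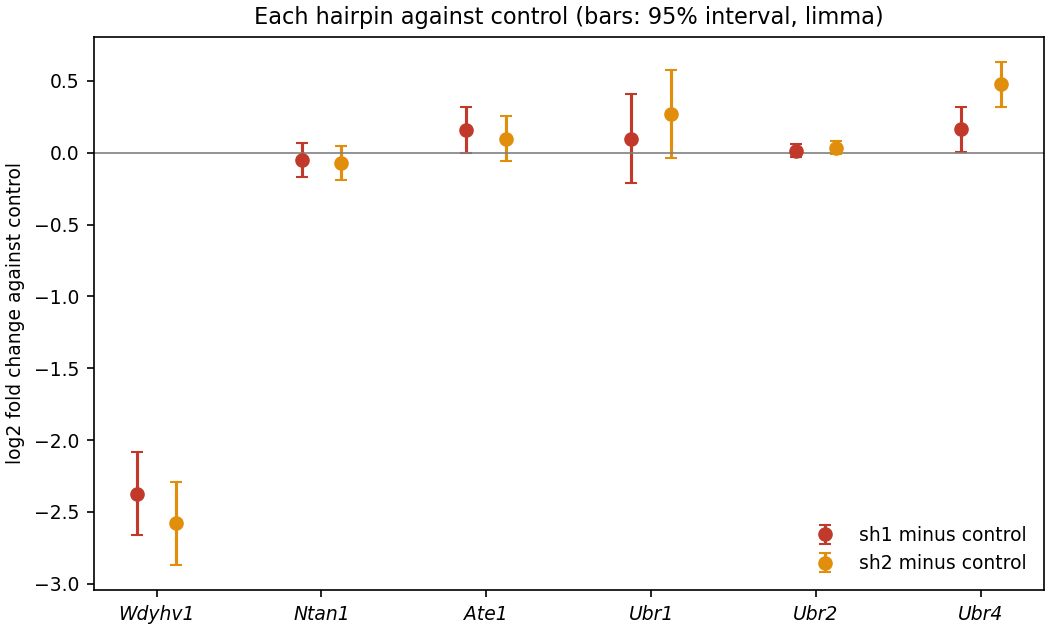
Log2 fold change of the 6 genes with sh1 and with sh2 against the same 3 HM-1-control arrays; points are estimates of the fit in 3 groups and bars 95% confidence intervals. Wdyhv1 is at -2.37 with sh1 and -2.58 with sh2, and the other 5 genes lie between -0.07 and 0.48. Wdyhv1 was picked for its fall, so its bars are a description and not a test.

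Beyond these genes, 4 listed genes of the N-degron pathways passed the test. Lists of genes by role held 72 genes besides the 6, of which 62 were measured. Of the 62, 2 fell, 2 rose and the other 58 failed the test. The 4 that passed are 6.45% of the list, beside 0.642% of all clusters (0.432% lower and 0.21% higher) and 2.54% of the 8294 clusters with 1 symbol and a mean above background. The median log2 fold change of the 62 was 0.01, beside 0.00 over all clusters.

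Among 7 measured genes of UBR box proteins and other readers, Ubr3 rose and 6 did not pass. Ubr3 encodes a UBR box ligase related to UBR1 and UBR2 that is not known to bind the classical N-degrons. On the log2 scale Ubr3 was at 11.20 and 11.21 with sh1, 11.34 and 11.38 with sh2, and 10.81, 10.84 and 10.88 in HM-1-control. Every HM-1-shSnail array was above every HM-1-control array, as in 5.08% of all clusters (log2 fold change 0.44, standard error 0.05, limma adjusted p = 0.042). The call was lost whichever single array was left out (adjusted p = 0.085 to 0.18). The median of the 7 was 0.02.

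Among 7 genes of the Gly/N-degron pathway and of myristoylation, Nmt2 rose and 6 did not pass. N-myristoyltransferases such as NMT2 attach a fatty acid to an N-terminal glycine, which otherwise can be read as a degron by the ZYG11B and ZER1 ligases. The log2 signal of Nmt2 was 12.88 and 12.92 with sh1, 13.09 and 12.99 with sh2, and 12.21, 12.26 and 12.27 in HM-1-control. All HM-1-shSnail arrays were well above HM-1-control (log2 fold change 0.72, standard error 0.05, limma adjusted p = 0.012). In the fit of 3 groups Nmt2 also passed with each hairpin, at 0.79 with sh2 (adjusted p = 0.020) and 0.65 with sh1 (adjusted p = 0.033). Of all clusters, 1.29% passed with sh2 and 0.134% with sh1. Its call for HM-1-shSnail was lost without control replicate 1, 2 or 3 or sh2 replicate 2 (adjusted p = 0.053 to 0.073), with the arrays of sh1 or sh2 alone (adjusted p = 0.054 and 0.093), with the covariate (adjusted p = 0.16) and by analysis of variance (adjusted p = 0.088). The sh2 call failed when 1 of the 2 sh1 arrays, control replicate 1 or control replicate 2 was left out (adjusted p up to 0.093), and the sh1 call without any array but sh1 replicate 2 (adjusted p up to 0.16). For the paralog Nmt1 the log2 fold change was 0.04 (adjusted p = 0.66).

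Of 16 measured substrates of the Arg/N-degron pathway, 2 fell, 0 rose and 14 failed the test. These are RNA signals of the substrate genes, and degradation of the proteins was not measured. Those that fell were Bcl2l11, which encodes the pro-apoptotic protein BIM, and Traf1, an adaptor of TNF receptors. The log2 signal of Bcl2l11 was 8.47 and 8.44 with sh1, 8.51 and 8.64 with sh2, and 9.17, 9.45 and 9.11 in HM-1-control (log2 fold change -0.73, standard error 0.09, limma adjusted p = 0.0497). Traf1 was at 8.78 and 8.83 with sh1, 8.69 and 8.88 with sh2, and 9.41, 9.26 and 9.47 in HM-1-control (log2 fold change -0.58, standard error 0.07, limma adjusted p = 0.037). In both genes every HM-1-shSnail array was under every HM-1-control array, as in 4.01% of all clusters. Both calls were lost whichever single array was left out (adjusted p = 0.073 to 0.16 for Bcl2l11 and 0.065 to 0.16 for Traf1), and in the fit of 3 groups (adjusted p = 0.064 for Bcl2l11 and 0.059 for Traf1). The largest difference among the substrates was in Epha4, an ephrin receptor gene named after its values were seen. Epha4 was at 8.22 and 8.17 with sh1, 8.34 and 8.81 with sh2, and 7.15, 7.20 and 7.12 in HM-1-control, the last near background. Its log2 fold change of 1.23 just missed the test (limma, adjusted p = 0.052). It passed under 7 of 19 alternatives (adjusted p = 0.014 to 0.039), among them the fit of 3 groups and the fit without sh2 replicate 2, so that 1 substrate rose there. The classical substrates Rgs4, Rgs5 and Rgs16, which quench G protein signalling, were all near background in both groups.

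The remaining lists had no call. None of 3 measured E2 enzymes and ligase partners passed, with log2 fold changes of -0.04 for Ube2a, which works with the UBR ligases, and 0.07 for Kcmf1. None of 15 genes of methionine removal and N-terminal acetylation passed, among them the aminopeptidase Metap1 at -0.04 and the acetyltransferase subunit Naa15 at 0.17. None of 10 subunits of the CTLH ligase, which reads N-terminal proline, passed, with 0.02 for Maea and 0.01 for Wdr26. The 10 ran from -0.35, in a gene near background (adjusted p = 0.059), to 0.15. Groups did not overlap in 2 that were lower and 1 that was higher, beside 4.01% lower and 5.08% higher of all clusters. None of 6 proteases that expose N-degrons passed, with -0.04 for Casp8. The calpain gene Capn2 did not pass either, at -0.29 (adjusted p = 0.060), although its groups did not overlap. The oxygen-sensing dioxygenase gene Ado, the only other listed enzyme of the Arg/N-degron pathway, had 0.06 (adjusted p = 0.63).

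**Figure D3:**
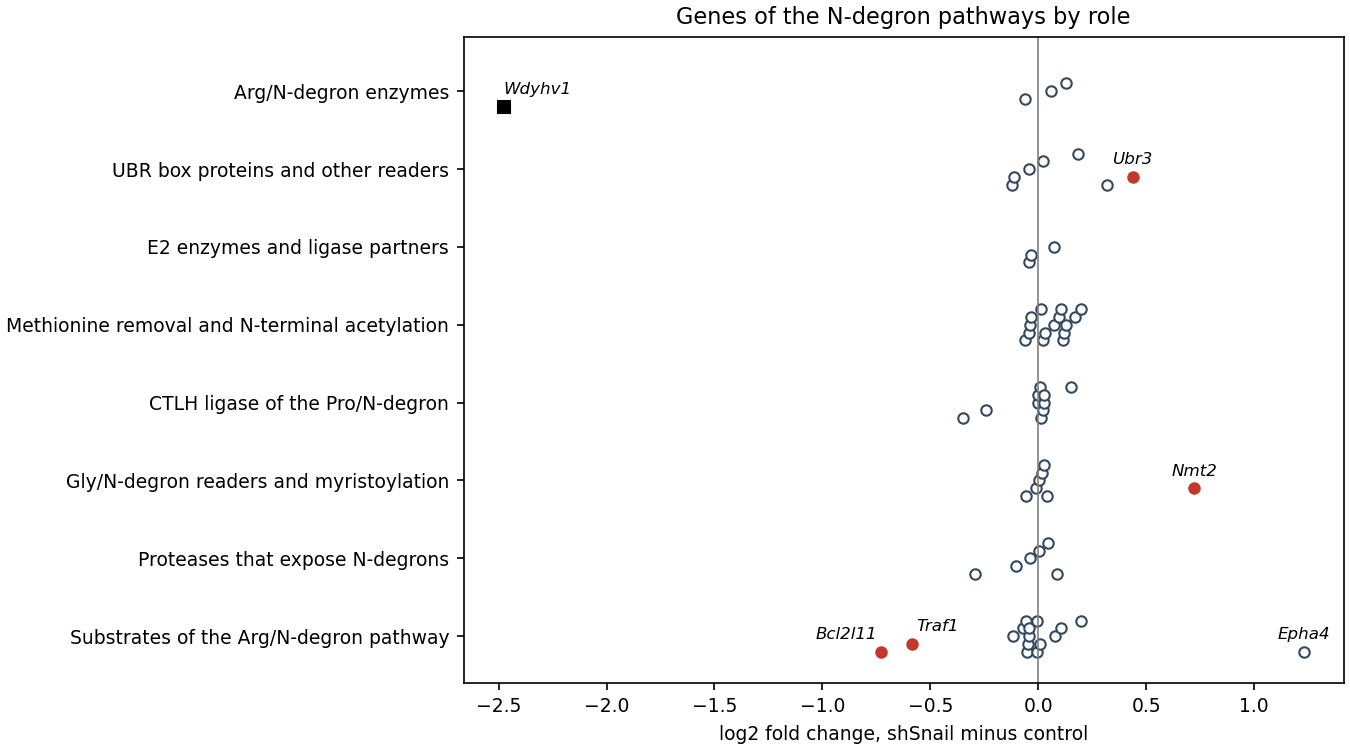
Log2 fold change of HM-1-shSnail against HM-1-control for each measured gene of the N-degron lists, 1 line per role; red points passed the test at an adjusted p under 0.05, open points did not, and the black square is Wdyhv1, which is described without a test. Ubr3 at 0.44, Nmt2 at 0.72, Bcl2l11 at -0.73 and Traf1 at -0.58 are the red points, and most others lie near 0.

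Snail is known as a repressor that binds E-box sequences, CANNTG, with a preference for CAGGTG. Start-site windows of 300 bases, 250 before and 50 after a gene's start, were taken from RefSeq (GRCm38.p6) for the 6 genes and for the 4 listed genes that passed. Windows were found for 9 of these 10 genes, and none for Wdyhv1. The E-box occurs in 72.3% of the 32851 windows of all genes, a sequence that reads alike on both strands, and CAGGTG or its reverse complement CACCTG in 20.2%. Of the 9 genes, Ntan1, Traf1, 1 of 2 windows of Ate1 and 1 of 2 windows of Bcl2l11 hold an E-box, and Ubr1, Ubr2, Ubr3, Ubr4 and Nmt2 hold none. No window of the 9 holds CAGGTG or CACCTG. The windows of Ntan1, an amidase gene that did not pass, of Traf1, which fell, and of Ubr3, which rose, are shown as examples of 1, 2 and 0 matches, with E-boxes in capitals. They lie at chr16:13819001-13819300 on the + strand, chr2:34961723-34962022 on the - strand and chr2:69896996-69897295 on the + strand.
Ntan1: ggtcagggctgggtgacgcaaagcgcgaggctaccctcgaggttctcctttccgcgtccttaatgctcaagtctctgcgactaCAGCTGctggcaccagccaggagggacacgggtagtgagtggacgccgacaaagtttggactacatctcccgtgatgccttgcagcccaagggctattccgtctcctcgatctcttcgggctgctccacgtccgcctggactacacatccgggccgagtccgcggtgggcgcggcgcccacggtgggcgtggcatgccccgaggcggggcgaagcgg
Traf1: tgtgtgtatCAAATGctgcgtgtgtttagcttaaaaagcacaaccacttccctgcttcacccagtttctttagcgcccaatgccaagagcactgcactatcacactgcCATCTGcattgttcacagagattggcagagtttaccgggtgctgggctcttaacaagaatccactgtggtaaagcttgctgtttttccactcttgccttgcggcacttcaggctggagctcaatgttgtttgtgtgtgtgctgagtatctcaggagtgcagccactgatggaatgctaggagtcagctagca
Ubr3: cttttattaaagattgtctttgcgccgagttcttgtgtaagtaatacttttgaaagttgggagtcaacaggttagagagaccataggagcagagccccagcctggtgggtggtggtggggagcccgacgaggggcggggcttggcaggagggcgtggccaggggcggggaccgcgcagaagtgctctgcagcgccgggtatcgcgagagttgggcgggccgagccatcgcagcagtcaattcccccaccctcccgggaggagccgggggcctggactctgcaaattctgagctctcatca
A match is only a stretch of letters, and binding was not measured on these arrays.

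Wdyhv1 lies on chromosome 15. Of the 5 nearest genes on each side with a cluster of 1 symbol, 2 of 10 fell, Atad2 and Fbxo32, 0 rose and 8 failed the test, against 0.432% of all clusters that fell. Atad2, a chromatin-associated ATPase gene on 1 side of Wdyhv1, had a log2 signal of 14.12 and 14.18 with sh1, 14.12 and 14.14 with sh2, and 14.46, 14.36 and 14.40 in HM-1-control. The difference was small (log2 fold change -0.27, standard error 0.03, limma adjusted p = 0.026). Every HM-1-shSnail array was under every HM-1-control array, as in 4.01% of all clusters. The Atad2 call did not survive leaving out any single array (adjusted p = 0.061 to 0.099).

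Fbxo32, on the other side of Wdyhv1, encodes atrogin-1, the substrate receptor of a ubiquitin ligase known from muscle wasting. The log2 signal of Fbxo32 was 6.63 and 6.68 with sh1, 6.57 and 6.67 with sh2, and 8.53, 8.63 and 8.31 in HM-1-control. Every HM-1-shSnail array was near background, so the log2 fold change of -1.86 (standard error 0.08, limma adjusted p = 0.0030) is uncertain in size. The call held whichever single array was left out (adjusted p up to 0.031). In the fit of 3 groups Fbxo32 also passed with each hairpin. It was at -1.87 with sh2 (adjusted p = 0.020) and -1.84 with sh1 (adjusted p = 0.033). The call was lost with the arrays of sh1 or sh2 alone against HM-1-control (adjusted p = 0.085 with sh1 and 0.099 with sh2). It was also lost with the covariate (adjusted p = 0.11) and by analysis of variance (adjusted p = 0.096). The other 8 genes had log2 fold changes of -0.12 to 0.27. Among them Derl1, a gene of protein export from the endoplasmic reticulum, had -0.08 at a high signal (adjusted p = 0.55), and Fam83a, Gm22299, Gm23475, Gm22488, Klhl38 and Anxa13 were near background.

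**Figure D4:**
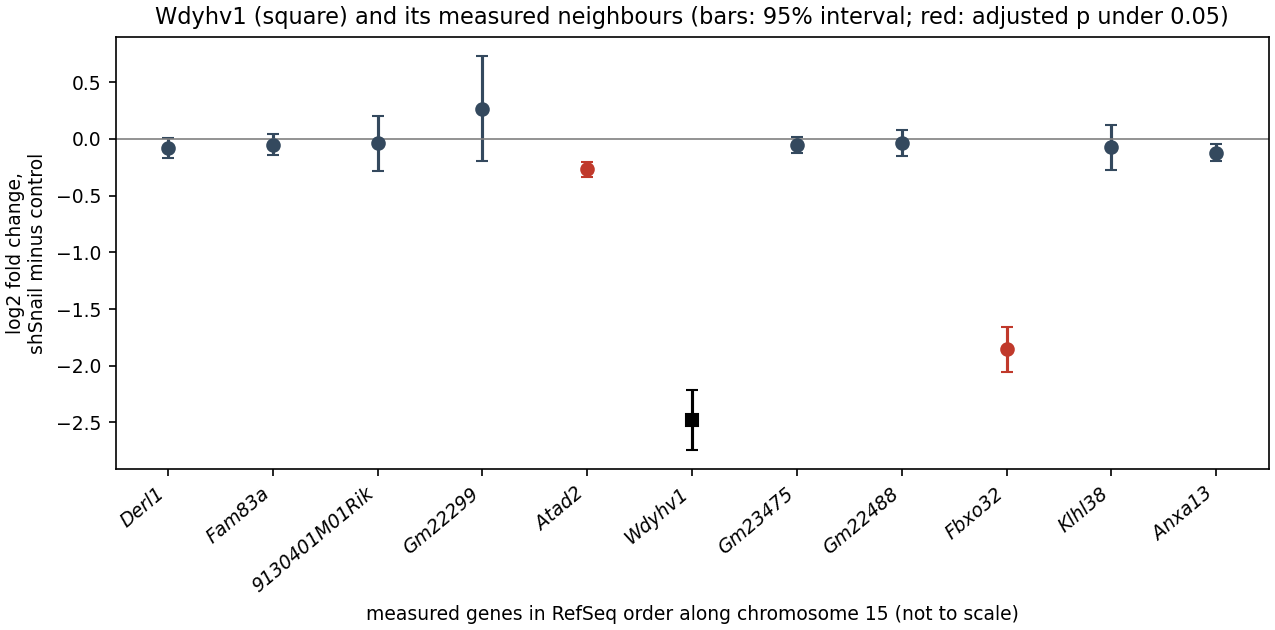
Log2 fold change of HM-1-shSnail against HM-1-control for Wdyhv1 and the 5 genes on each side of it, in their order along chromosome 15 and not to scale; points are estimates of the fit and bars 95% confidence intervals. Fbxo32 at -1.86 and Atad2 at -0.27 passed the test, and the genes between and around them lie between -0.12 and 0.27, apart from Wdyhv1 at -2.48. Wdyhv1 was picked for its fall, so its bar is a description and not a test.

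The 5 genes most like Wdyhv1 over the 7 arrays were Ier3, Frk, Cdkn1a, Ccl2 and Gdpd5, by Pearson correlation with 8293 clusters of 1 symbol and a mean above background. Their correlations were 0.999, 0.997, 0.996, 0.995 and 0.995 in that order, and mostly reflect the split between hairpin and control arrays, which all 7 points share. The early response gene Ier3 had the closest pattern. The signal of Ier3 was 11.57 and 11.65 with sh1, 11.20 and 11.52 with sh2, and 13.41, 13.34 and 13.38 in HM-1-control. As in Wdyhv1, sh2 replicate 1 was the lowest array and sh1 replicate 2 the highest of the HM-1-shSnail arrays. The cyclin-dependent kinase inhibitor gene Cdkn1a was at 14.97 and 14.98 with sh1, 14.92 and 14.97 with sh2, and 15.26, 15.25 and 15.30 in HM-1-control, so its log2 fold change was only -0.31 despite the like pattern. The log2 fold change was -1.90 for Ier3, -0.88 for the tyrosine kinase gene Frk, -2.09 for the phosphodiesterase gene Gdpd5 and -6.06 for the chemokine gene Ccl2.

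**Figure D5:**
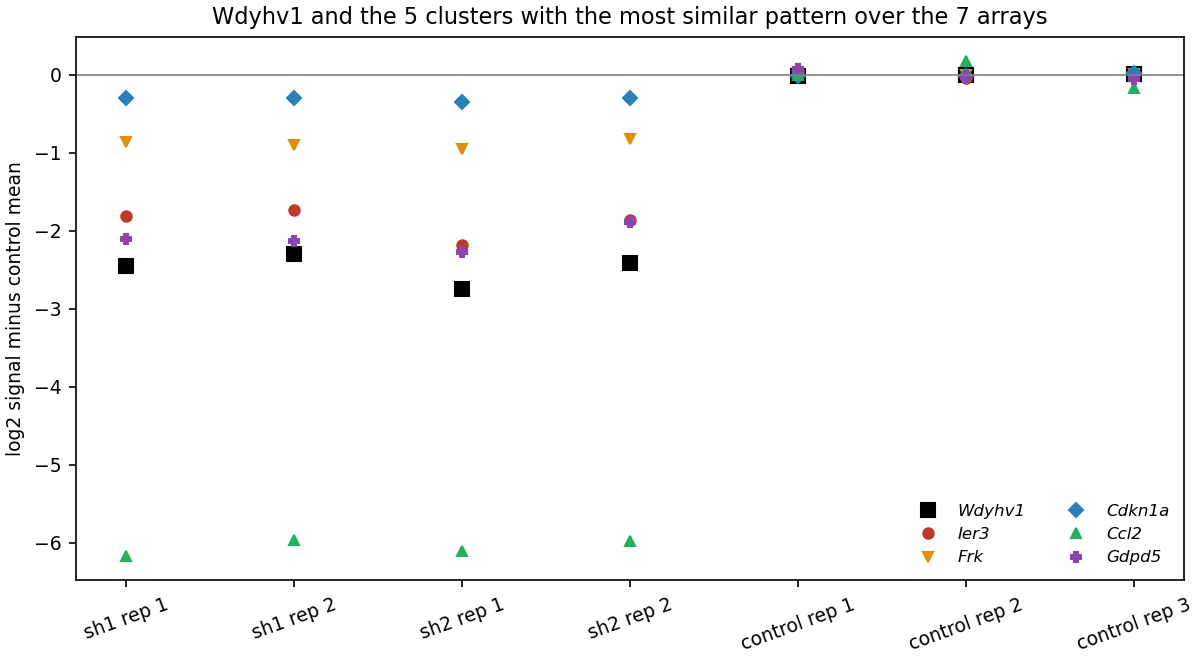
Log2 signal of Wdyhv1 and the 5 genes with the highest Pearson correlation to it, each minus its own mean over the HM-1-control arrays; points are single arrays, with hairpin arrays left of control arrays. All 6 genes are low on the 4 HM-1-shSnail arrays and high on the 3 HM-1-control arrays, and Ccl2 has the widest step, with a log2 fold change of -6.06.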

How the data were processed

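RNA of 2 sh1, 2 sh2 and 3 HM-1-control samples had been hybridised to Affymetrix Mouse Transcriptome Array 1.0. The deposited table holds the authors' log2 signals, 1 value per array and entry, made with Affymetrix Expression Console. How background was corrected and probes were summarised is not given in the sources used here. Of 72688 entries, 65770 are transcript clusters and 5222 negative controls. Gene symbols came from the platform annotation (1 symbol for 30473 clusters, several for 2176, none for 33121). Groups were taken from the sample labels.

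No further normalization was applied. HM-1-shSnail was compared with HM-1-control by limma 3.58.1 (lmFit and eBayes, R 4.3.3). P-values were adjusted over all clusters by Benjamini and Hochberg, with calls at an adjusted p under 0.05. Hairpins were compared in a 3-group fit to the 7 arrays. The fit was also run on simulated data with planted changes and independent noise without ties. Since the deposited values hold many ties, that run gives no support for the calls here. The number of arrays limits the precision.

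The genes and lists were chosen with earlier results of these data known. Named genes are the 6 members, listed genes past the test or, in lists with none, those with the highest mean, the neighbours of Wdyhv1, the 5 genes most correlated with it, and Snai1. A gene named outside this rule was chosen with its values in view. Listed genes without a cluster of 1 symbol were not measured. Alternatives were the replicate number as a block, filters, normalizations, other settings of eBayes, the negative controls as a covariate, analysis of variance, each hairpin alone, and leaving out each array.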

Additional observations from a re-analysis of the deposited data

Results flagged for a closer look

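In the 35 named genes, the 4 HM-1-shSnail arrays were checked for 1 array apart from the other 3, and 7 had one. Gm23475 and Klhl38 had the same value on all 4, so no array could stand apart in them. Chance alone gives about 1 in 20 for values without ties. In 4 of the 7, Ntan1, Wdr26, Fam83a and Anxa13, the other 3 deposited values were equal, so that any difference would stand out and this rate does not apply. Ntan1 had 9.02 with sh2 replicate 1, beside a mean of 9.06 on the other 3 arrays. Ubr1 had 11.00 with sh2 replicate 1, beside 10.68. Among the ligase subunits, Maea had 13.69 with sh1 replicate 2, beside 13.66, and Wdr26 had 13.06 with sh1 replicate 2, beside 13.00. Among the neighbours of Wdyhv1, Fam83a had 3.59 with sh1 replicate 2, beside 3.70, Gm22299 had 7.90 with sh2 replicate 2, beside 7.27, and Anxa13 had 4.57 with sh2 replicate 2, beside 4.68. All 3 neighbours were near background. Without sh2 replicate 2, Anxa13 passed the test (limma, adjusted p = 0.040).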

How the results depend on the processing

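The log2 fold change of Wdyhv1 lay between -2.58 and -2.37 under all 19 alternatives, and 0 of the other 5 members passed under any of them, also without any 1 array (0 to 0 calls). The 422 clusters called between HM-1-shSnail and HM-1-control became 846 with quantile normalization, 5 with the negative controls as a covariate and 15 by analysis of variance over the 3 groups with Benjamini-Hochberg adjustment, or 57 at the study's own threshold. Of alternatives chosen after seeing the data, analysis of variance with both hairpins as 1 group gave 114, or 104 at that threshold, sh1 alone 39 and sh2 alone 14. Without 1 array the count was 91 to 176. The 88 calls of sh1 became 243 with a filter at the 40th percentile, 206 with only clusters of 1 symbol, 300 with quantile normalization, 236 with centring on the median, 0 with the covariate and 1 to 539 without 1 array. The 846 of sh2 became 1330, 434, 1449, 1298 and 0 under the same settings and 8 to 3625 without 1 array, and the 0 between sh2 and sh1 became 0 to 2078. The 4 calls in the wider lists became 7 with the filter, with only clusters of 1 symbol and with quantile normalization, 0 with the covariate and by analysis of variance, 1 with both hairpins as 1 group in it, 1 with sh1 alone, 0 with sh2 alone and 0 to 1 without 1 array. The 2 called neighbours became 0 with the covariate, by analysis of variance, with sh1 alone and with sh2 alone, 1 with both hairpins as 1 group in it, and 1 to 2 without 1 array. A lone array left in a group was assumed to vary like the others. Apart from the settings with fewer arrays or clusters, the cause was not tested. The covariate can hardly be separated from the groups, since the negative control medians did not overlap between sh1, sh2 and HM-1-control.

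Arrays share replicate numbers across groups, but the deviations of same-numbered arrays from their group means correlated at r = -0.21 to -0.07 between hairpin and control arrays and at 0.16 between sh2 and sh1, so the numbers were not taken as pairs. With the replicate number as a block, 8 clusters passed between HM-1-shSnail and HM-1-control, 1 with sh1, 1 with sh2, 0 between sh2 and sh1, 0 of the members, 0 of the wider lists and 1 neighbour. Another cluster for each member could not be tried, since each has 1. The study's depth has no counterpart on arrays, and signals near 7.97 or lower give uncertain fold sizes.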
